A study of Mus musculus with 4 samples.

Results

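The Schlafen genes of the mouse were followed over 4 arrays of Ba/F3 cells, a mouse pro-B line that depends on IL-3. The members are the genes Slfn1, Slfn2, Slfn3, Slfn4, Slfn5, Slfn8 and Slfn9, which are 7 of the 19935 genes compared, and each was read by 1 probe set of the Affymetrix Gene 1.0 ST array that carries its symbol alone. The family was chosen by name but selected on earlier readings of these same arrays, in which Slfn2 stood far above the parental cells. The members' differences from the parental array are therefore a description and carry no test.

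The groups were Ba/F3 cells with an inducible BCR-ABL gene grown with IL-3 (1 array), the same kind of cells grown without IL-3 (2 arrays, A and B), and parental Ba/F3 cells with IL-3 (1 array). BCR-ABL is the fusion kinase of chronic myeloid leukaemia, and it was switched on in all 3 arrays of the inducible cells with 500 ng/ml doxycycline. All cultures were in logarithmic growth. The labels give no doxycycline for the parental cells and do not say whether the inducible line is 1 clone, or whether A and B are separate cultures, so the spread between A and B may be technical. The transgene, the drug and the derived line therefore cannot be told apart in any comparison with the parental array, and the lone arrays show no spread of their own. Arrays A and B also lacked the IL-3 that the parental cells had, so their comparison with the parental array holds that change too.

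Schlafen genes form a rodent-expanded family of immune genes that several mouse cell types turn on in response to type I interferon. They are grouped by protein length: Slfn1 and Slfn2 encode short proteins, Slfn3 and Slfn4 intermediate ones, and Slfn5, Slfn8 and Slfn9 long ones that add a helicase-like part. In the mouse, Slfn1 was first known for holding back thymocyte growth, and Slfn2 is needed for T cells and monocytes to stay quiescent.

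Every deposited value is a difference from the parental array, read as log2, so the parental value is 0 for all genes and no level of a gene can be set against that of another. Over all genes the medians were 0.0085 on the array with IL-3, 0.0044 on A and -0.077 on B. The SD over genes of the difference between A and B was 0.196. Whether the cells carry pro-B transcripts at all cannot be read from such differences. Of 8 pro-B and B cell markers 7 were measured, and 0 passed the limma test between BCR-ABL cells without IL-3 and parental cells, with a median of -0.12. In that test 5.19% of all genes passed as higher and 2.87% as lower at an adjusted p under 0.05. Before adjustment, 16.6% of all genes had a p under 0.05, as had 1 of these 7 markers. Its error comes from the differences between A and B, pooled over genes by limma, so the adjusted p-values of this comparison, here and below, set a difference from 1 parental array against a spread that may be technical.

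Slfn2 was the member that stood farthest from the parental cells. It lay at 3.26 on the array with IL-3 and at 3.39 and 3.32 on A and B without IL-3, against 0 on the parental array. All 3 BCR-ABL arrays were within a narrow band far above the parental one: the fold over parental was 9.59 with IL-3, and 10.5 and 10.0 without it. A and B differed by 0.062 (SD 0.044, n = 2), less than the SD over genes given above. Ranked over all 19935 genes by the lowest of the 3 BCR-ABL values, Slfn2 stood at place 5.

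Slfn1, the other short member, lies next to Slfn2 on the chromosome and did not share its level. It was at 0.094 with IL-3 and at 0.48 and -0.017 on A and B, against 0 in parental cells. The parental value fell within the range of A and B, whose mean was 0.23 ± 0.35 (SD, n = 2). Slfn1 was also the 1 member of 7 whose values held an odd multiple of 2 raised to minus 21, as did 10904 of all 28815 probe sets, which points to a low stored signal on at least 1 array.

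The intermediate members were both higher than in parental cells. Slfn4, a gene of mouse macrophages and other myeloid cells, was at 1.64 with IL-3 and at 1.64 and 1.11 on A and B, against 0 in parental cells. That is 3.12-fold over parental with IL-3, and 3.11-fold and 2.16-fold without it, so all 3 arrays were above 2-fold but A and B were 0.53 apart. Slfn3, the neighbour of Slfn4, was at 0.40 with IL-3 and at 0.82 and 0.87 on A and B, against 0. Its A and B were only 0.051 apart, and the array with IL-3 lay below both.

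Slfn5, a long member induced by interferon in mouse and human cells, was at 0.74 with IL-3 and at 0.77 and 0.64 on A and B, against 0 in parental cells. The 3 BCR-ABL arrays lay close together, between 1.55-fold and 1.71-fold over parental. The remaining long members were near the parental value. Slfn8, which impairs T cell development when overexpressed in mice, was at 0.039 with IL-3 and at 0.27 and 0.25 on A and B, against 0. Slfn9 was at -0.064 with IL-3 and at 0.42 and 0.18 on A and B, against 0, so the parental value lay inside the range of the BCR-ABL arrays.

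**Figure D1:**
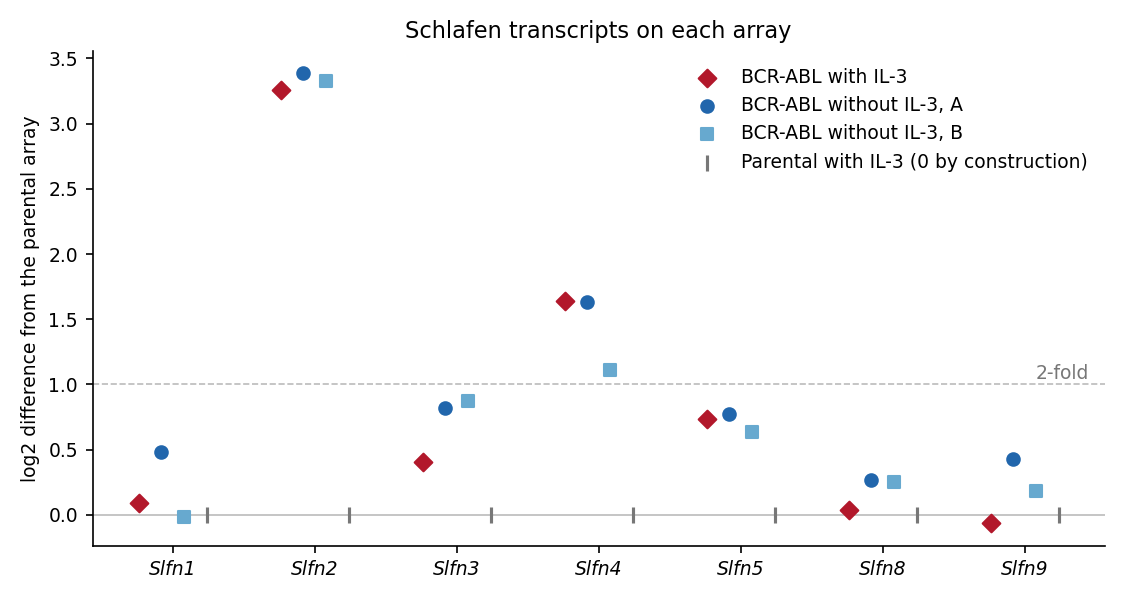
Log2 difference from the parental array (vertical axis) of the 7 Schlafen genes on the array with IL-3 (diamonds), arrays A and B without IL-3 (circles and squares) and the parental array (ticks at 0). The 3 values of Slfn2 lie between 3.26 and 3.39 and those of Slfn4 between 1.11 and 1.64, above the dashed 2-fold line, and the other 5 genes lie below it.

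At least 2-fold above the parental array on all 3 BCR-ABL arrays were 2 of 7 members, Slfn2 and Slfn4, where 0.722% of all genes were. At least 2-fold below it on all 3 were 0 of 7 members and 0.316% of all genes. Because these values chose the family, nothing is read from the contrast. Above 0 on all 3 arrays were 5 members, all but Slfn1 and Slfn9, and 23.6% of all genes. By the mean of the 3 BCR-ABL arrays the order was Slfn2 (3.32), Slfn4 (1.46), Slfn5 (0.72), Slfn3 (0.70), Slfn8 (0.19), Slfn1 (0.19) and Slfn9 (0.18). The ranges of the 3 arrays did not overlap between Slfn2 and Slfn4, Slfn4 and Slfn5, or Slfn3 and Slfn8. They overlapped between Slfn5 and Slfn3 and among the lowest 3.

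Protein length did not sort the members. The short pair Slfn2 and Slfn1 were 5.45 apart over the 3 arrays (Euclidean distance of the log2 differences), while the long pair Slfn8 and Slfn9 were 0.20 apart, the smallest distance of the 21 pairs. Slfn3 and Slfn5 were 0.41 apart although they belong to different length groups. Where the array's probes lie in these similar genes was not analysed here, so signal shared between close relatives was not tested.

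The members stand in 1 cluster on chromosome 11, and in the RefSeq gene table (GRCm38.p6) their order is Slfn5, Slfn9, Slfn8, Slfn10-ps, Slfn2, Slfn1, Slfn4 and Slfn3. The promoter table places Slfn9 and Slfn8 on the minus strand and the other 5 members on the plus strand. High and low members were interleaved along this order. Slfn10-ps, a gene with a pseudogene symbol between Slfn8 and Slfn2, was at -0.060 with IL-3 and at 0.064 and 0.15 on A and B, against 0 in parental cells. The long non-coding RNA Slfn5os, annotated on the strand opposite to Slfn5, was at -0.086 with IL-3 and at -0.074 and -0.18 on A and B, against 0, and so did not share the difference of Slfn5. Slfnl1, a more distant relative on chromosome 4, was at -0.12 with IL-3 and at -0.038 and -0.28 on A and B, against 0. Slfn14 was not analysed here.

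Genes on either side of the cluster were also read. On the Slfn5 side these were Unc45bos, Unc45b, a myosin chaperone gene, and Nle1, a ribosome assembly gene, and on the Slfn3 side Ap2b1, a clathrin adaptor subunit, Rasl10b and Gas2l2. Their 18 values on the 3 BCR-ABL arrays ran from -0.41 to 0.29, and 0 of 6 passed the limma test between BCR-ABL cells without IL-3 and parental cells (limma adjusted p between 0.377 and 0.980). At an unadjusted p under 0.05 there were 0 of 6, where 16.6% of all genes were, and 6 genes are too few to set them apart from that share.

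**Figure D2:**
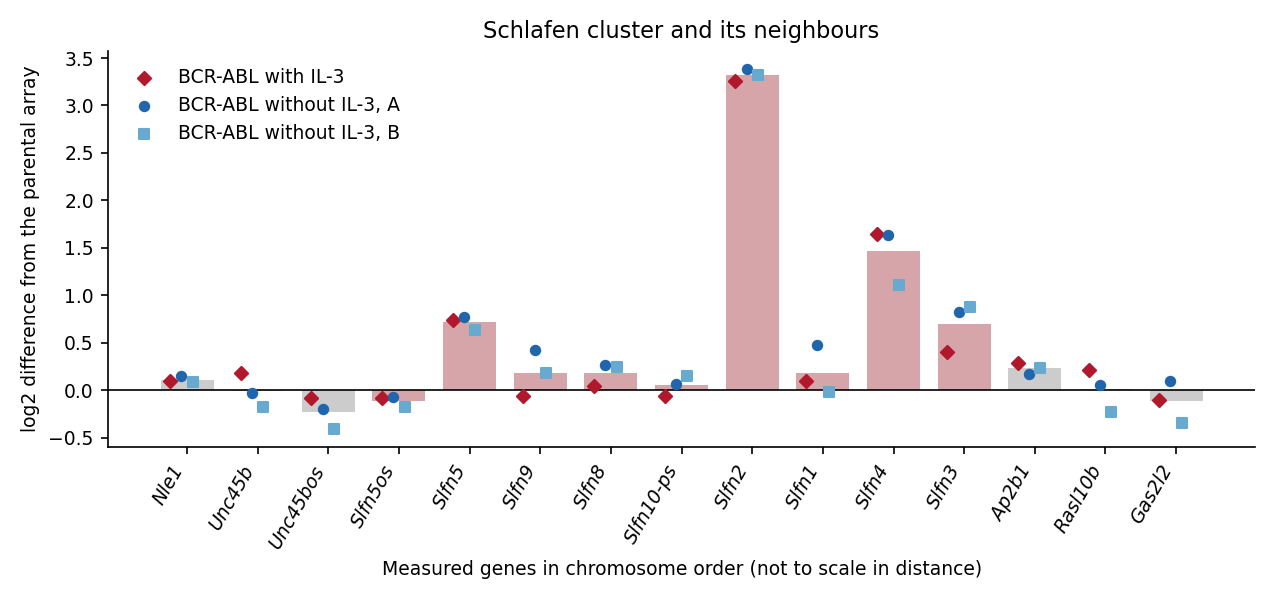
Mean log2 difference of the 3 BCR-ABL arrays from the parental array (bars) and the single arrays (points) for the Schlafen genes and their relatives in the cluster (red bars) and the 3 measured genes on each side (grey bars), in chromosome order. Slfn2 at 3.32 stands between Slfn10-ps at 0.053 and Slfn1 at 0.19, and the flanking values stay between -0.41 and 0.29.

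Promoters are shown because members beside each other had such different values. The sequences are those of RefSeq on GRCm38.p6, which holds 8 windows for the 7 members (Slfn8 has 2, and its first was used). Each window runs from 250 bases before the annotated start to 50 after it. The upstream 250 bases of the members with the highest values are given 5′ to 3′ on the gene's strand. Capitals mark ACTTCCTGG, the longest run of letters that the windows of Slfn1, Slfn2, Slfn3 and Slfn4 have in common, a comparison chosen after the sequences were seen.
Slfn2, chr11:83064862-83065111, plus strand: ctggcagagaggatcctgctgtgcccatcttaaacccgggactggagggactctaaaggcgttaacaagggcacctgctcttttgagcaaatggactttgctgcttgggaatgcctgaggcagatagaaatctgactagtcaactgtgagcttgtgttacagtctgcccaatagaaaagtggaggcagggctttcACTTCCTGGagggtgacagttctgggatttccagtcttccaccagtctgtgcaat
Slfn4, chr11:83174936-83175185, plus strand: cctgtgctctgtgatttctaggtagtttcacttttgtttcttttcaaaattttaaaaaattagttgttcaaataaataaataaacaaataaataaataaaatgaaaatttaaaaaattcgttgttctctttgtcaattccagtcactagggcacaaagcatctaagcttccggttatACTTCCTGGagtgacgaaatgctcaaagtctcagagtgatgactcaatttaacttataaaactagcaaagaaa

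This run holds TTCC, the reverse complement of the GGAA core that ETS-family transcription factors recognise. It lay from 55 to 47 bases before the start in Slfn2, from 73 to 65 in Slfn4, from 42 to 34 in Slfn3 and from 74 to 66 in Slfn1, each time on the same strand as the gene. The choice of the run fixes its presence in these 4 windows. On either strand it was in 0 of the other 3 member windows, and 0.84% of the 32851 windows of the table hold it. The stretches around it can be compared line by line.
Slfn2, chr11:83065042-83065080, plus strand: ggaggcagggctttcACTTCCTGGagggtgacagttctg
Slfn4, chr11:83175098-83175136, plus strand: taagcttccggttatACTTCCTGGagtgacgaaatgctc
Slfn3, chr11:83191273-83191311, plus strand: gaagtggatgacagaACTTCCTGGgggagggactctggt
Slfn1, chr11:83116731-83116769, plus strand: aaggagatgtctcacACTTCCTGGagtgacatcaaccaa

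Slfn1 and Slfn4 have 15 letters in a row in common here, and Slfn1 and Slfn2 have 12. The means of the carriers over the BCR-ABL arrays were 3.32 for Slfn2, 1.46 for Slfn4, 0.70 for Slfn3 and 0.19 for Slfn1. Whether the letters bear on these values was not tested.

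The core of the interferon-stimulated response element, searched as GAAANNGAAA on both strands, was found in 3 of 7 member windows and in 3.44% of all windows. These were the long members Slfn5, Slfn8 and Slfn9, and not Slfn2 or Slfn4. These matches lie in other members than those with the run described above. Capitals mark them here, and in Slfn8 and Slfn9, printed like the others on the gene's own strand, GAAANNGAAA reads on the opposite strand.
Slfn5, chr11:82951932-82951971, plus strand: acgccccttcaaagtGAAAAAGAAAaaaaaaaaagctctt
Slfn8, chr11:83020834-83020873, minus strand: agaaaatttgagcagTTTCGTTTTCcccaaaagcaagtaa
Slfn9, chr11:82991851-82991890, minus strand: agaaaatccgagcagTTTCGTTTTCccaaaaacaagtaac

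Slfn8 and Slfn9, with matches from 48 to 39 and from 45 to 36 bases before the start, were the members with the element nearest to it, and both were among the lowest 3. In the second window of Slfn8 the match lay from 136 to 127 bases before the start. The first window of Slfn8 and that of Slfn9 were 80.8% identical over a global alignment, where the other pairs of members ran from 46.5% to 53.0%. The core of STAT sites, searched as TTCNNNGAA on both strands, was in 0 of 7 member windows and in 8.30% of all windows. GAGGAA, searched as the ETS and PU.1 core on both strands, was in 1 member window, that of Slfn9, and in 28.28% of all. The run shared by Slfn1 to Slfn4 holds GGAA on its other strand but not GAGGAA, and was not counted in this search. A window without a match says only that these letters are not in these 300 bases. Forms that differ by a letter were not searched, and whether any match bears on the members' values was not tested.

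**Figure D3:**
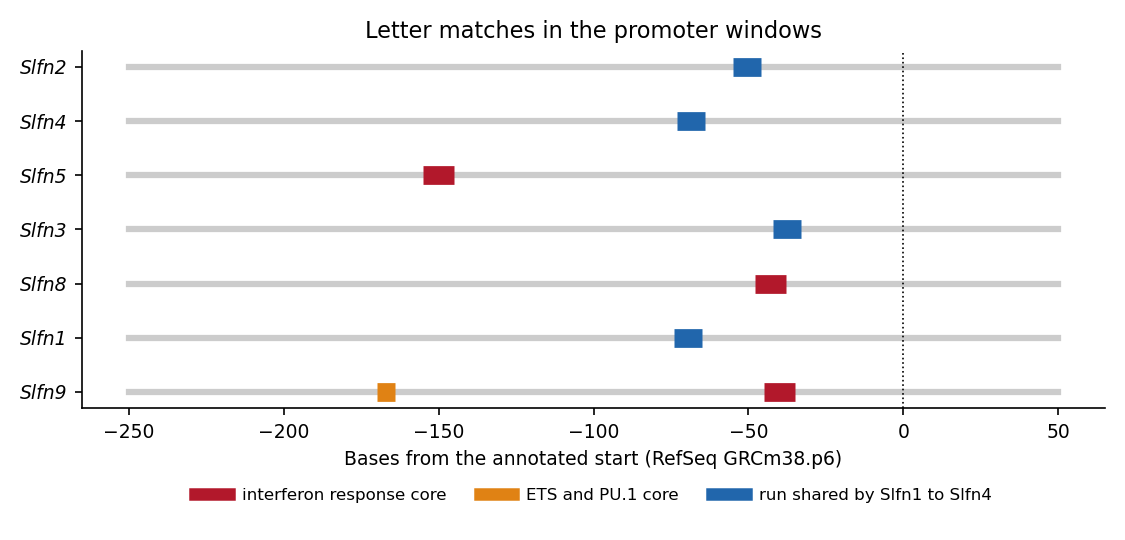
Places of the letter matches in the promoter windows of the 7 members (horizontal axis, bases from the annotated start), with the members ordered from the highest mean difference at the top. The shared run (blue) lies between 74 and 34 bases before the start in Slfn2, Slfn4, Slfn3 and Slfn1, and the interferon response core (red) occurs in Slfn5, Slfn8 and Slfn9.

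To ask what IL-3 adds to the Schlafen genes while the kinase is on, the array of BCR-ABL cells given IL-3 (n = 1) was set against the pair of arrays without IL-3 (n = 2). It shares arrays A and B with the differences above. The error of this test also comes from the differences between A and B, so its SE and intervals rest on a spread that may be technical. The limma test over all genes called 0 of 7 members, where 0.00502% of all genes were called. Before adjustment 2 members, Slfn3 and Slfn9, had a limma p under 0.05, as had 901 of 19935 genes. Slfn3 was at -0.44 with IL-3 minus without (log2, SE 0.15, limma adjusted p = 0.817, 95% interval -0.77 to -0.12). Slfn9 was at -0.37 (SE 0.16, limma adjusted p = 1.00, 95% interval -0.70 to -0.03).

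For Slfn2 no difference with IL-3 was detectable with these arrays: it was at -0.094 (SE 0.15, 95% interval -0.42 to 0.23), an interval that allows a difference of either sign. Slfn4 was at 0.27 (95% interval -0.12 to 0.67), and it was seen against B only, since the array with IL-3 was 0.0072 above A and 0.53 above B. Slfn5 was at 0.033, Slfn1 at -0.14 and Slfn8 at -0.22, and each interval included 0. The array with IL-3 lay below both A and B for 4 of 7 members, Slfn2, Slfn3, Slfn8 and Slfn9, and for 25.5% of all genes. It lay above both for 1 member, Slfn4, and for 39.9% of all genes. With each array centred on its median the members' counts were again 4 and 1, and the shares of all genes were 36.3% and 30.6%.

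**Figure D4:**
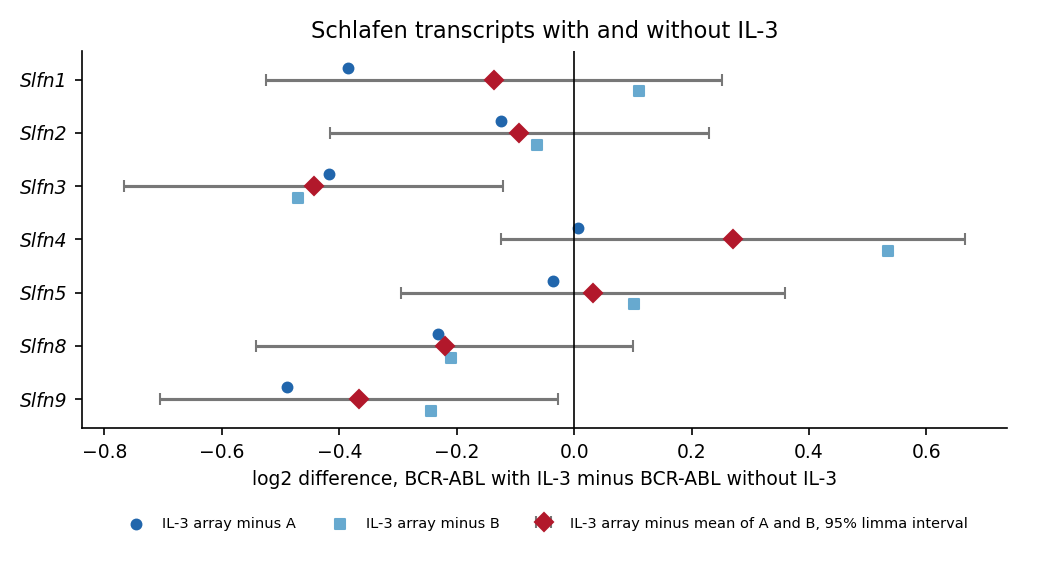
Log2 difference between the BCR-ABL array with IL-3 and the mean of arrays A and B without it (diamonds, with 95% limma intervals), and against A and B singly (circles and squares). The intervals of Slfn3 and Slfn9 lie below 0 before adjustment over all genes, and the other 5 include 0.

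Interferon signalling genes were set beside the family because type I interferon is a known inducer of several members. The gene lists, here and below, were written with earlier results of these data known, so their counts are a description. Between BCR-ABL cells without IL-3 and parental cells, 0 of 6 measured interferon ligand genes passed the limma test, with a median of 0.0016, Ifnb1 at -0.025 and Ifng at 0.028. At an unadjusted p under 0.05 there were 0 of 6 as well, beside the 16.6% of all genes, and nothing is read from so short a list. Of 13 receptors and transducers 2 rose and 1 fell, where 5.19% and 2.87% of all genes did. Their median was 0.037, beside -0.038 over all genes. Irf7, the transcription factor that amplifies the type I response, rose by 2.11 (SE 0.16, limma adjusted p = 7.86e-08), and Irf9, the DNA-binding part of the factor that type I interferon activates, by 0.71 (SE 0.17, limma adjusted p = 0.0105). Ifngr1, the ligand-binding chain of the interferon gamma receptor, fell by 1.11 (SE 0.16, limma adjusted p = 0.000139). The type I receptor chains Ifnar1 and Ifnar2 were at 0.037 and 0.021 and did not pass.

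Interferon targets were the list whose median lay highest. Of 23 measured genes 19 rose and 0 fell, where 5.19% and 2.87% of all genes did. The median of the targets was 1.28. Usp18, which removes ISG15 from proteins, was at 3.83 with IL-3 and at 3.79 and 3.68 on A and B, against 0 in parental cells. Ifit1, which binds foreign RNA caps, was at 3.33 with IL-3 and at 3.18 and 2.98 on A and B, against 0, close to the values of Slfn2. Cmpk2, Dtx3l and Samd9l did not pass, at 0.0066, 0.052 and -0.045, so the targets, like the Schlafen genes, were not uniform. With IL-3 minus without, 20 of the 23 targets were above 0 with a median of 0.21, while 5 of the 7 Schlafen genes were below 0 with a median of -0.14, and of all genes 60.6% were above 0, with a median of 0.034. Whether the lists differ in this was not tested. There limma called 0 targets and 0.00502% of all genes. At an unadjusted p under 0.05 there were 7 targets, beside 4.52% of all genes.

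Targets of STAT5, the factor that both IL-3 and BCR-ABL activate, were also higher: 7 of 12 rose and 0 fell, with a median of 0.85. Beside this list and those below, 5.19% of all genes rose and 2.87% fell in this test. Il2ra was at 4.11, Pim2 at 2.98 and Cish at 2.06 in cells without IL-3, while Socs2 (0.16) and Bcl6 (-0.13) did not pass. Genes around tRNA cleavage and foreign RNA sensing were listed because mouse Slfn2 binds tRNA. Of 8 measured 4 rose and 0 fell, with a median of 0.51, and the helicases Dhx58 (1.54, limma adjusted p = 2.63e-06) and Ddx58 (0.62, limma adjusted p = 0.0170) were among them. Rnh1, the inhibitor of the tRNA-cleaving RNase angiogenin, was at -0.061 and did not pass. Of 13 quiescence genes 0 rose and 3 fell, with a median of -0.17: the CDK inhibitor Cdkn1b fell by 0.79 (-0.59 with IL-3, -1.13 on A and -0.45 on B, against 0 in parental cells), the pocket protein Rbl2 by 0.68 and Foxp1 by 0.61. The quiescence gene Klf2 was at -0.12 and did not pass. After the arrays were centred on their medians, Cdkn1b and Foxp1 lost the call, and Eif2ak2 and Mov10 of the RNA list did too.

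**Figure D5:**
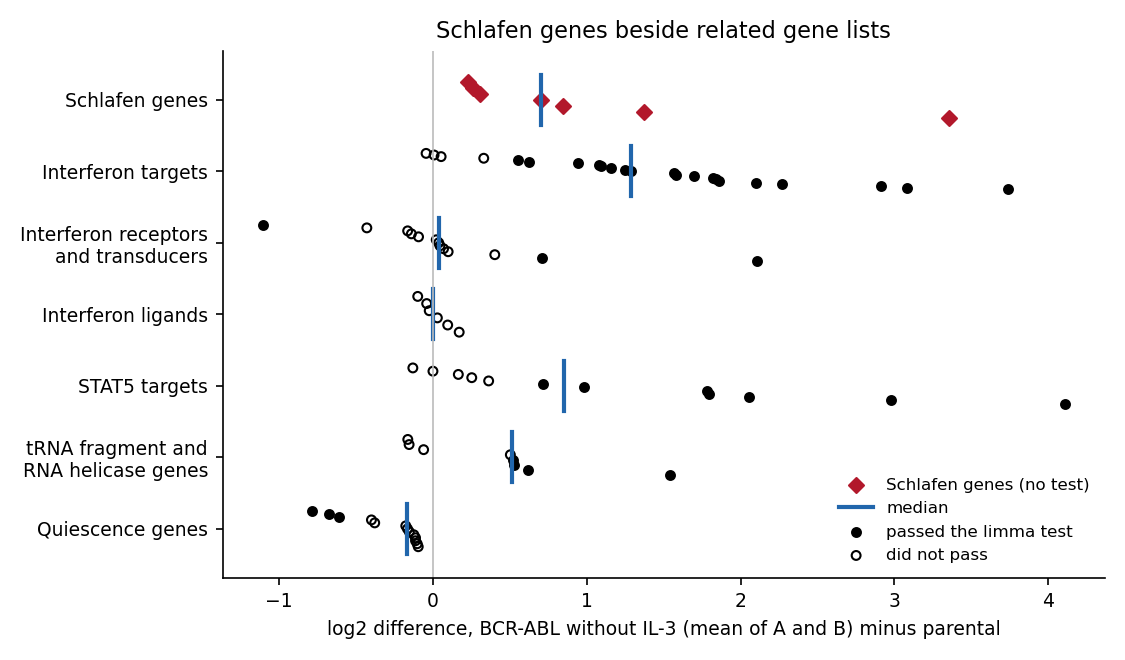
Log2 difference between BCR-ABL cells without IL-3 (mean of A and B) and parental cells, for the 7 Schlafen genes (diamonds, not tested) and 6 gene lists (filled circles passed the limma test, open circles did not), with each median as a blue line. Schlafen genes have a median of 0.71, interferon targets of 1.28, and interferon ligands of 0.0016.

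Markers of other cell types that express Schlafen genes were read in the same test, where 5.19% of all genes rose and 2.87% fell. Of 6 measured T cell markers 0 passed, with a median of -0.13, and 1 had an unadjusted p under 0.05, near the 16.6% of all genes. Of 7 measured monocyte and macrophage markers 2 rose, the surface proteins Adgre1 (1.74) and Fcgr1 (2.50), while Csf1r, Cd14, Itgam, Lyz2 and Cx3cr1 did not pass, at -0.15, 0.12, 0.20, 0.033 and -0.11. The part of these 2 genes in the values of Slfn4 was not tested. Of 6 genes listed as non-haematopoietic markers Pecam1 rose (0.59), a gene that endothelium shares with platelets, monocytes and lymphocytes, and Col1a1, Epcam, Alb, Krt18 and Des did not pass.

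Patterns over the 3 BCR-ABL arrays were compared by Euclidean distance of the log2 differences. Predicted genes, small RNAs, olfactory and vomeronasal receptors, clone-type and pseudogene symbols, and all symbols starting with Rn were left out before ranking. Among the remaining genes those most like Slfn2 were Milr1 (distance 0.15), Ifit1 (0.41), Pim2 (0.55), Il13 (0.63) and Ifit3 (0.68). Milr1, an inhibitory receptor of mast cells, was at 3.12 with IL-3 and at 3.39 and 3.37 on A and B, against 0 in parental cells. Nearest to Slfn4 were Tmem171 (0.15), the death ligand gene Tnfsf10 (0.21), Fkbp1a (0.28), Igfbp4 (0.29) and Rara (0.30). Tnfsf10 was at 1.56 with IL-3 and at 1.44 and 1.08 on A and B, against 0. Nearest to the mean of the 7 members, which was 0.87 with IL-3 and 1.11 and 0.91 on A and B, were Bysl (0.083), Ipo4 (0.091), Hbegf (0.097), Slc20a2 (0.11) and Myo19 (0.12). That mean is set largely by Slfn2 and Slfn4. Each distance rests on 3 arrays that share the parental array, and no test was made.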

How the data were processed

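RNA was converted to biotin-labelled sense-strand cDNA and hybridised to Affymetrix Gene 1.0 ST arrays, per the labels' protocols. What the authors deposited is on a log2 scale relative to the parental array, whose column is 0 in all 28815 probe sets. Base 2 was read from the values, since 96.7% of those other than 0 are, in single precision, whole multiples of 2 raised to minus 21, the spacing of stored numbers between 4 and 8. Background correction, normalization and summarisation are not given in the sources used here.

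Probe sets with exactly 1 symbol in the platform annotation (21780) were averaged by gene. All 7 members matched RefSeq by gene identifier. The 4 arrays entered 1 limma fit (version 3.58.1, R 4.3.3) with 3 group means, tested on simulated data. Only A against B gives it a residual (1 degree of freedom), and single arrays are taken to vary by as much. Tests were two-sided and genes passed at a Benjamini-Hochberg adjusted p under 0.05 over all 19935 genes. The number of arrays limits the precision.

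Other settings tried were arrays centred on their medians, leaving out A or B, a threshold of 0.1 or of 1.5-fold, a fit of only the groups compared, probe sets tested singly, and robust empirical Bayes. The members and gene lists were chosen with earlier results of these data known. Named were all members, other Slfn symbols and 3 flanking genes on each side. From the lists, up to 4 genes with the largest and 3 with the smallest mean difference over the BCR-ABL arrays were named. The 5 nearest patterns among the symbols kept for that ranking were named too. Ifnar1, Ifnar2, Ifnb1, Ifng, Eif2ak2, Trim30a and the markers were named outside these rules, after their values were seen.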

Additional observations from a re-analysis of the deposited data

How the results depend on the processing

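Slfn2 and Slfn4 were the 2 members at least 2-fold above parental on all BCR-ABL arrays, and the count was again 2 after centring and without A or B, and 3 at 1.5-fold. The count of members 2-fold below was 0 under each of these. Without A, Slfn1 in BCR-ABL cells without IL-3 was at -0.017, against 0.48 without B, and with IL-3 minus without it lay between -0.38 and 0.11. For Slfn5 that difference was -0.012 after centring and between -0.036 and 0.10 when A or B was left out. Centring moved Slfn8 without IL-3 to 0.30. Over all genes, 1607 were called between BCR-ABL cells without IL-3 and parental cells and 936 after centring (637 higher and 299 lower, in place of 1035 and 572). With IL-3 over without, 1 gene was called, 0 after centring, 3 with probe sets tested singly and 2 at a threshold of 0.1. Counts in the gene lists were recomputed as an addition made after the data were seen: centring also took the call from Trim30a. It left 2 called genes in the RNA list and 1 in the quiescence list, and at a threshold of 0.1 1 T cell marker was called lower. The cause of these shifts was not tested. Leaving out A or B leaves no residual degree of freedom, so the limma counts could not be made there. No paired analysis was possible because only 1 group has more than 1 array. The members have 1 probe set each, so a choice among probe sets changed nothing for them.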
